A study of Mus musculus with 3 samples.

Results

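The genes described here are 10 mouse genes of cytosolic nucleic acid sensing: the oligoadenylate synthetase family members Oas2, Oas3, Oasl1 and Oasl2, the RNA-activated kinase gene Eif2ak2, the RNA helicase genes Ifih1 and Dhx58, the Z-form nucleic acid sensor gene Zbp1, the RNA editing enzyme gene Adar and the adaptor gene Mavs. They were chosen by name, and each is represented by the probe sets that the platform annotation gives to it alone. All 10 were found, with 18 of 45037 gene probe sets, among 18193 genes with a probe set of their own. Eif2ak2, Dhx58 and Adar had 3 probe sets, Zbp1 and Mavs had 2, and the other 5 genes had 1.

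The cells were mouse dendritic cells (BMDCs), which present antigen to T cells and here came from bone marrow cultured for 10 days with the growth factor GM-CSF (10 ng/ml) under all 3 conditions. BMDC(-) cells were unstimulated, BMDC(+LPS) cells received 10 ng/ml lipopolysaccharide from Escherichia coli for 3 h, and BMDC(+LPS+cAMP) cells received the same LPS with 100 µM 8-Br-cAMP, a cell-permeable analogue of cyclic AMP, for 3 h. The labels give no strain, age or sex, and no incubation time for the unstimulated cells. Each condition had 1 Affymetrix array, so differences have no replicate check and no test was possible.

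Cells recognise viral nucleic acid in the cytosol through proteins that are themselves encoded by interferon-stimulated genes. Double-stranded RNA activates Oas enzymes, which make short oligoadenylates that switch on the nuclease RNase L, and the kinase PKR, encoded by Eif2ak2, which halts translation. The helicases RIG-I and MDA5 (Ifih1) signal through Mavs on mitochondria to induce interferon beta, and interferon acting back on the cell raises most of the sensors. In dendritic cells LPS reaches the same interferon loop from outside, through Tlr4 and the adaptor Trif.

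Interferon-stimulated genes are commonly switched on through the interferon-stimulated response element (ISRE), and cyclic AMP acts on many genes through the cAMP response element (CRE). RefSeq promoter windows (GRCm38.p6, 250 bases before to 50 bases after the start) were at hand for 7 of the 10 genes, in 9 windows because Adar has 3. Oas2, Dhx58 and Zbp1 had no entry. The ISRE core, read as GAAA, any 2 bases and GAAA, and searched on both strands, was in 1 window each of Oas3, Eif2ak2 and Ifih1, and in 3.44% of all 32851 promoter windows of the same length. The matches are shown because these genes are 3 of the 9 that were higher with LPS. The windows of Oasl1, Oasl2 and Adar, also higher with LPS, held no match. Capitals mark the ISRE core and each line runs 5′ to 3′ on the gene's strand. Positions are chr5:120777715-120777744 for Oas3, chr17:78882535-78882564 for Eif2ak2 and chr2:62646206-62646235 for Ifih1, all on the minus strand.
Oas3: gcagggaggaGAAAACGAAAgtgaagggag
Eif2ak2: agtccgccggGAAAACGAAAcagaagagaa
Ifih1: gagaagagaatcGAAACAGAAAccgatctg
The Oas3 match begins 75 bases before the start, and those of Eif2ak2 and Ifih1 begin at bases 19 and 33 of the transcript. Oas3 and Eif2ak2 hold the same 10 bases. A match is a description of letters and not of a bound site.

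The full CRE, TGACGTCA, was in 0 of the 9 windows, against 1.79% of all windows. Its 5-base part TGACG, searched on both strands and contained in the full element, was in the windows of Oasl1, Oasl2 and Ifih1 and in 20.8% of all windows. The 250 bases before the start of Oasl1 and Oasl2 are shown because these neighbouring genes had the highest and the lowest difference of the 10 genes between LPS+8-Br-cAMP and LPS. They lie at chr5:114922990-114923239 and chr5:114896684-114896933, on the plus strand. Capitals mark TGACG or its reverse complement, and the Oasl2 match runs over the start, so only its first 3 bases are shown.
Oasl1: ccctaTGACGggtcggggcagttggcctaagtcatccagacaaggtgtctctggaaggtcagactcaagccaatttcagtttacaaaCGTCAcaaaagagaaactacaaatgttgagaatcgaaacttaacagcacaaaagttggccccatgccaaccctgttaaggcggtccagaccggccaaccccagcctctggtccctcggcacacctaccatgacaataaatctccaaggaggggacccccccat
Oasl2: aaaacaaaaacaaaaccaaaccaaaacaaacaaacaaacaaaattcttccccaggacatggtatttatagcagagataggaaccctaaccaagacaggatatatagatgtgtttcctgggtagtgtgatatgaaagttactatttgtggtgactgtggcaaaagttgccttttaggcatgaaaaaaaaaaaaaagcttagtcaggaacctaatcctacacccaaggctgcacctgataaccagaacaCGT
Neither stretch holds the ISRE core.

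The arrays differed in brightness and the cultures in more than their treatment. Deposited medians were 42.6, 33.4 and 19.8 for BMDC(-), BMDC(+LPS) and BMDC(+LPS+cAMP), and each array was scaled to a common mean trimmed by 2% at each end. Scaled signals under a floor of 32.5, the highest of the array medians, were set to it for log2 differences, and a difference from the floor is given as at least that size. The error of 1 probe set came from the disagreement between the brightest and next brightest probe set of a gene, both above the floor on both arrays compared. It was a log2 SD of 0.45 for LPS against unstimulated, 0.48 for LPS+8-Br-cAMP against LPS and 0.56 for LPS+8-Br-cAMP against unstimulated. This error is not the spread between cultures, and it leaves out probe sets under the floor. Xist, the transcript of the inactive X chromosome, read 1716 on the LPS+8-Br-cAMP array and was under the floor on both others. The Y-linked Eif2s3y read 352 unstimulated, 272 with LPS and was under the floor with LPS+8-Br-cAMP, as were the Y-linked Uty and Kdm5d. By these transcripts the LPS+8-Br-cAMP array reads as female and both others as male, though the labels give no sex. All 14 dendritic markers measured were above the floor on every array. Their summed signal was 34987 on the BMDC(-) array, 46469 on BMDC(+LPS) and 61458 on BMDC(+LPS+cAMP). The sums did not hold for each marker: against unstimulated cells 9 of 14 were higher with LPS and 10 with LPS+8-Br-cAMP. Itgax (1518, 1347 and 1165), Flt3, Cd209a and Clec10a were lower on both LPS arrays, while Ccl17 read 246, 2376 and 4600. The 6 plasmacytoid dendritic markers, of which 4 were above the floor on each array, summed to 730 on BMDC(-), 1423 on BMDC(+LPS) and 1100 on BMDC(+LPS+cAMP). Only Bst2 and Tcf4 were higher with LPS than without it, by 1.31 and 1.54 log2 units. Cox6a2 and Ly6d were lower with LPS, at -0.96 and -0.69, and Siglech and Ccr9 were under the floor on every array. The summed signal of 12 granulocyte markers was 42816 on the BMDC(-) array, 45156 on BMDC(+LPS) and 23923 on BMDC(+LPS+cAMP). In the same order, 9 B and plasma cell markers summed to 5053, 3083 and 329, 8 mast cell and eosinophil markers to 1807, 1828 and 768, and 9 macrophage markers to 28967, 27704 and 23319. For LPS+8-Br-cAMP against LPS, 3 of 8 measured B and plasma cell markers were above 0. So were 3 of 8 mast cell and eosinophil markers and 3 of 9 macrophage markers, but 0 of 12 granulocyte markers. Ighm (-4.83) and Igha (-3.95) were lower and Jchain fell under the floor, while Cd79b (0.10), Ebf1 (0.76) and Pax5 (at least 0.67) were higher. All 12 granulocyte markers were above the floor on every array, and of the B and plasma cell markers 7, 7 and 5 were. The part of these differences in the results below was not tested. For the marker sums, a change in the makeup of a culture cannot be told apart from a change in RNA per cell.

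With LPS, 9 of the 10 genes were at least 2-fold higher than in unstimulated cells, where 6.64% of 12283 measured genes were. Their log2 differences ran from 2.18 for Oas3 to 6.24 for Oasl1. Mavs alone was at least 2-fold lower, at -1.54, where 13% of measured genes were. The median of the 10 genes was 2.97, against -0.21 for all measured genes. By its brightest probe set each gene differed by more than 2 times the error of 1 probe set. With the next brightest probe set 8 genes were at least 2-fold higher, where 7.08% of measured genes were, and Adar was at 0.75.

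**Figure D1:**
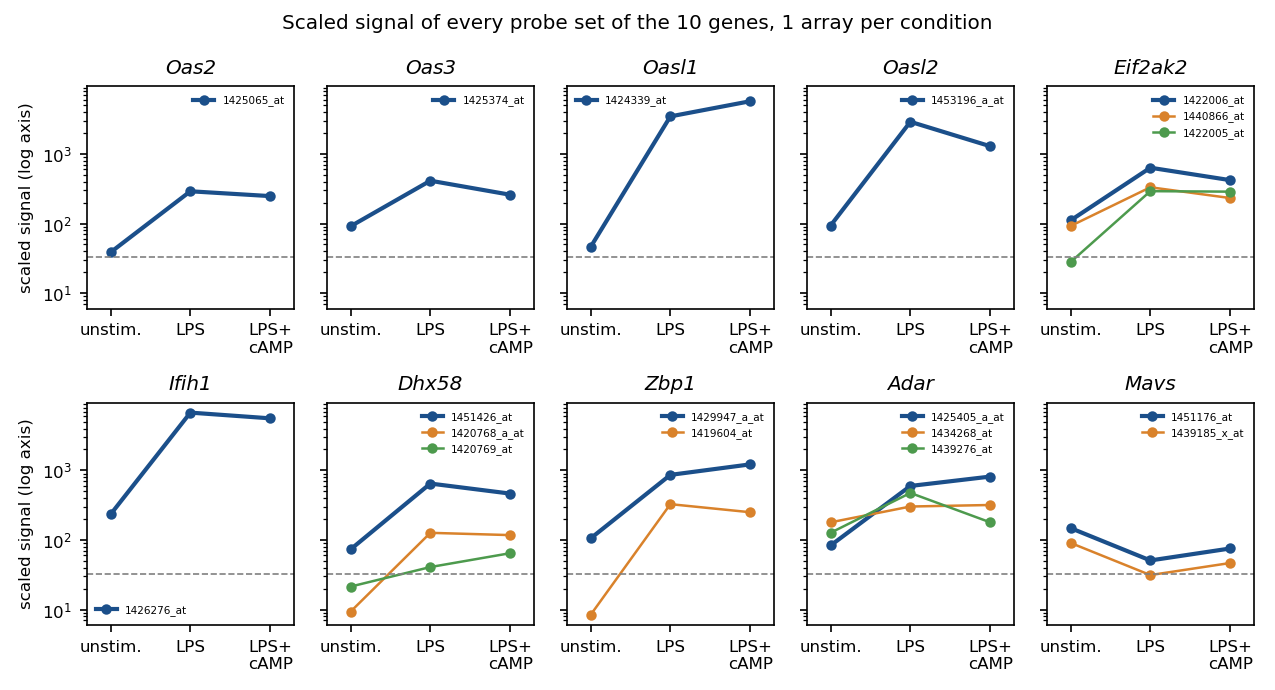
Scaled signal (log axis) of each of the 18 probe sets on the arrays of BMDC(-), BMDC(+LPS) and BMDC(+LPS+cAMP), 1 panel per gene, with the brightest probe set of a gene as a thick line and the floor of 32.5 dashed. Oasl1 goes from 45.9 to 3460 with LPS, and both Mavs probe sets go down.

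Among the Oas genes, Oas2 and Oas3 are neighbours on chromosome 5 and encode enzymes that make oligoadenylates. The scaled signal of Oas2 was 38.6 in unstimulated cells, 291 with LPS and 248 with LPS+8-Br-cAMP. It was thus low without LPS, 7.53-fold higher with LPS and within the error of 1 probe set of that with the analogue added (-0.23). Its unstimulated signal lay close to the floor, so this fold depends on the floor, and the log2 difference of 2.91 was 1.41 with a floor at the 75th percentile and 2.18 with a pseudocount in place of the floor. Oas3 read 91.3, 412 and 259 in the same order. It was 4.52-fold higher with LPS (2.18) and 1.59-fold lower with the analogue (-0.67) than with LPS alone.

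Oasl1 and Oasl2, a second pair of neighbours on chromosome 5, encode oligoadenylate synthetase-like proteins with ubiquitin-like domains. Mouse Oasl2 is an active synthetase, whereas Oasl1 is not and is known for holding back translation of Irf7. Oasl1 read 45.9 without LPS, 3460 with LPS and 5716 with LPS+8-Br-cAMP. It was 75.3-fold higher with LPS, rank 14 of 12283 measured genes. With the analogue as well it was 124-fold above unstimulated cells, rank 6 of 12793. The size of both folds depends on the floor: the log2 difference with LPS was 6.24, but 4.99 with a floor at the 75th percentile and 5.48 with a pseudocount, and that with the analogue was 6.96, but 5.71 and 6.19. Oasl2 read 93.5, 2897 and 1292 in the same order, 31.0-fold higher with LPS and 13.8-fold higher with LPS+8-Br-cAMP.

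Between both LPS arrays the pair went apart. Oasl1 was 1.65-fold higher with 8-Br-cAMP (0.72, but -0.085 with signals as deposited) and Oasl2 was 2.24-fold lower (-1.17), a gap of 1.89 log2 units. Oasl2 was the only gene of the 10 past 2-fold in this comparison, where 5.81% of 12572 measured genes were at least 2-fold lower. It was also the only one beyond 2 times the error of 1 probe set. Each of the pair has 1 probe set, so neither value can be set against another part of its transcript.

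Eif2ak2 encodes PKR, which binds double-stranded RNA and phosphorylates the initiation factor eIF2α. Its brightest probe set read 111 without LPS, 634 with LPS and 420 with LPS+8-Br-cAMP. The other 2 read 92.1, 332 and 232, and 27.9 (under the floor), 292 and 287. All 3 were higher with LPS, by 2.51, 1.85 and at least 3.16 log2 units. With the analogue they differed from LPS by -0.59, -0.51 and -0.023, so the third differed less than the others.

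Ifih1 encodes MDA5, the helicase sensor of long double-stranded RNA. Its scaled signal was 234 without LPS, 6772 with LPS and 5604 with LPS+8-Br-cAMP. It was 29.0-fold higher with LPS, rank 30 of 12283 measured genes, a log2 difference (4.86) within the error of 1 probe set of that of Oasl2 (4.95). With the analogue it was 1.21-fold lower than with LPS alone (-0.27), which is within that error.

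Dhx58 encodes LGP2, a helicase without signalling domains that regulates MDA5 and RIG-I. Its brightest probe set read 73.4, 648 and 465 on the unstimulated, LPS and LPS+8-Br-cAMP arrays. It was 8.83-fold higher with LPS (3.14) and differed by -0.48 with the analogue. The LPS difference was 2.57 with a floor at the 75th percentile, 2.68 with a pseudocount and 1.81 as the mean over its probe sets. A dimmer probe set read 9.36 (under the floor), 127 and 118, at least 3.90-fold higher with LPS and at -0.11 with the analogue. The dimmest read 21.4 (under the floor), 40.9 and 64.7, at least 0.33 higher with LPS and 0.66 higher with the analogue. Of the 3, only the dimmest was higher with 8-Br-cAMP than without it, close to the floor.

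Zbp1 binds Z-form RNA and DNA and can start necroptosis through the kinase Ripk3. Its brightest probe set read 106, 863 and 1222 in the order unstimulated, LPS, LPS+8-Br-cAMP, and its second 8.40 (under the floor), 328 and 251. Both were higher with LPS, by 3.03 and at least 3.33. They went opposite ways with the analogue, at 0.50 (-0.31 with signals as deposited) and -0.38, so these arrays give no direction for Zbp1 in that comparison.

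Adar converts adenosine to inosine in double-stranded RNA, which keeps the cell's own RNA from being sensed. Of the 5 genes with several probe sets, it had the widest spread between them for LPS+8-Br-cAMP against LPS, while Dhx58 had the widest for LPS against unstimulated. The brightest read 83.5, 598 and 816, 7.16-fold higher with LPS (2.84) and 0.45 higher with the analogue (-0.36 with signals as deposited). It was the brightest on average over the arrays but the dimmest of the 3 without LPS, so the size of its LPS difference rests on that choice. The second read 180, 303 and 319, under 2-fold higher with LPS (0.75) and at 0.073 with the analogue. The third read 127, 475 and 180, higher by 1.90 with LPS and 2.64-fold lower with the analogue (-1.40). All 3 were higher with LPS, while with 8-Br-cAMP they spanned 1.85 log2 units and both signs.

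Mavs encodes the mitochondrial adaptor through which MDA5 and RIG-I signal. It read 148 without LPS, 50.9 with LPS and 75.6 with LPS+8-Br-cAMP by its brighter probe set, and 90.9, 31.4 (under the floor) and 46.8 by the other. Both were lower with LPS, 2.92-fold and at least 2.79-fold, and both were higher with the analogue than with LPS alone, by 0.57 (-0.24 with signals as deposited) and at least 0.52. Against unstimulated cells, LPS+8-Br-cAMP differed by -0.97 and -0.96, just under 2-fold. With a floor at the 75th percentile the LPS difference was -0.45, because that floor lies above the LPS signal.

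**Figure D2:**
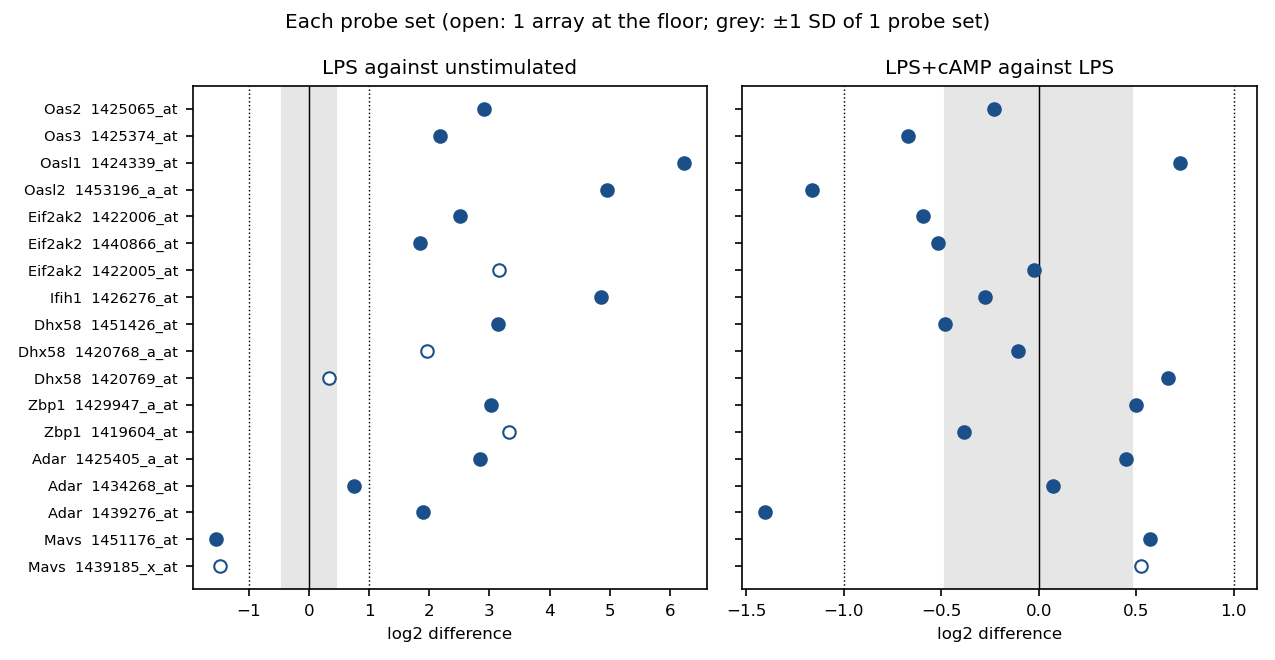
Log2 differences of each of the 18 probe sets, LPS against unstimulated on the left and LPS+8-Br-cAMP against LPS on the right; open circles have 1 array at the floor, the grey band is 1 SD of 1 probe set either way, and dotted lines mark 2-fold. On the left 16 of 18 lie above 0, and on the right 11 of 18 lie below 0, with no share over all probe sets beside these counts.

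With LPS+8-Br-cAMP against LPS, 1 of the 10 genes was at least 2-fold lower, beside a share of 5.81% over all measured genes. On the higher side the count past 2-fold was 0, beside a share of 6.49%. No test was run, so there is no p-value beside this 0. By their brightest probe sets 6 were below 0 (Oas2, Oas3, Oasl2, Eif2ak2, Ifih1 and Dhx58) and 4 above (Oasl1, Zbp1, Adar and Mavs). The median was -0.25, against 0.049 for all measured genes. Differences of 3 of the 10 lay within the error of 1 probe set. By probe set, 11 of 18 were below 0 and 2 were at least 2-fold lower, those of Oasl2 and the third of Adar. No share over all probe sets stands beside these counts, so they are not read as a tendency of the 10 genes.

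**Figure D3:**
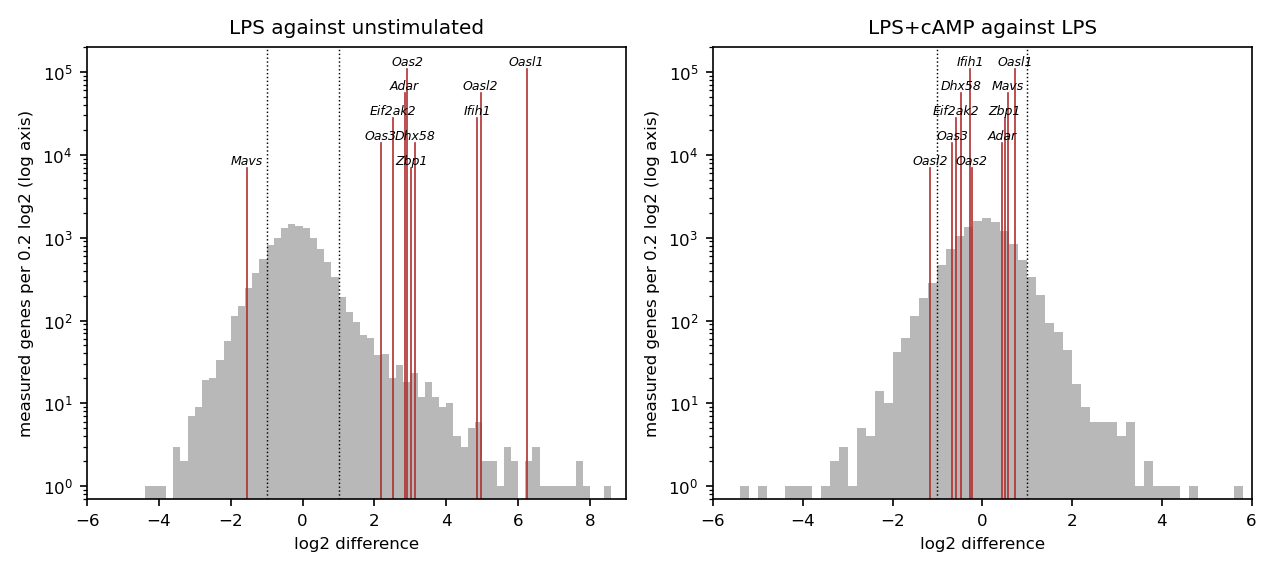
Histograms (log axis) of the log2 differences of all measured genes in bins of 0.2, with the 10 genes as red lines and dotted lines at 2-fold, LPS against unstimulated on the left and LPS+8-Br-cAMP against LPS on the right. On the left 9 genes lie right of the bulk and Mavs left of it; on the right all 10 lie between -1.17 and 0.72, with Oasl2 just past 2-fold.

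The direction of 4 genes in this comparison rested on the array scaling. Oasl1, Zbp1, Adar and Mavs were above 0 under 5 of 6 scalings and below 0 with signals as deposited, which keep the dimness of the LPS+8-Br-cAMP array. Deposited signals of Oasl1 were 3723 with LPS and 3510 with the analogue, a difference of -0.085. The other 6 were all past 2-fold lower with signals as deposited, from -1.04 for Oas2 and -1.08 for Ifih1 to -1.97 for Oasl2, where 27.98% of all measured genes were. The median of all measured genes was then -0.65, and the hybridisation spikes, RNAs added in fixed amount, read 1422 on the LPS array and 773 on the other. Set against the median of all genes under the same scaling, these 4 genes lay above it and the other 6 below it under all 6 scalings, by 0.42 to 0.69 for Oasl1 and by -1.33 to -1.20 for Oasl2. Most of these scalings multiply a whole array by 1 number, which moves all genes and their median alike, apart from the floor. The agreement was thus largely fixed in advance and is not 6 separate checks. It holds for the brightest probe sets only. Dimmer ones of Zbp1 (-0.38), Adar (-1.40) and Dhx58 (0.66) lay on the other side of the median with the trimmed-mean scaling.

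**Figure D4:**
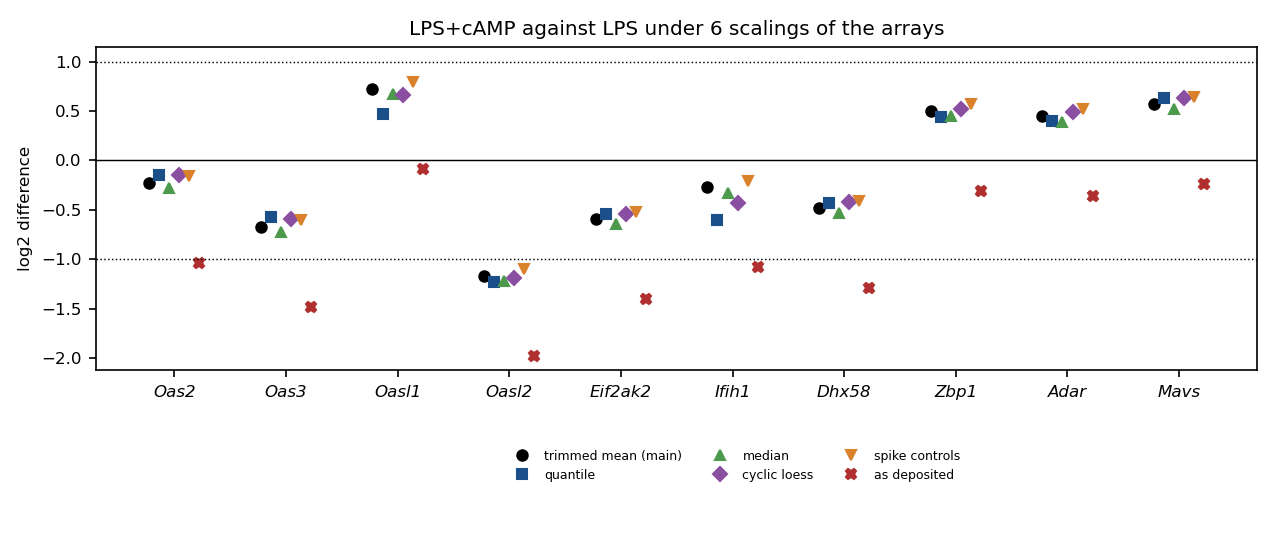
Log2 difference of each gene between LPS+8-Br-cAMP and LPS under 6 scalings of the arrays, with dotted lines at 2-fold. Signals as deposited lie lowest for every gene, and Oasl2 is past 2-fold lower under all 6.

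Against unstimulated cells, 9 genes, all but Mavs, stood at least 2-fold higher on the LPS+8-Br-cAMP array, where 9.36% of 12793 measured genes were, and 0 of 10 were at least 2-fold lower, where 15.8% were. This comparison shares its unstimulated array with the first, so it does not repeat it independently. The median was 2.99. The differences were 6.96 for Oasl1, 4.58 for Ifih1, 3.79 for Oasl2, 3.53 for Zbp1 and 3.29 for Adar (0.83 and 0.50 by its other probe sets). Those of Oas2, Dhx58, Eif2ak2 and Oas3 were 2.68, 2.66, 1.92 and 1.51, and that of Oas2 was 1.18 with a floor at the 75th percentile. With signals as deposited 7 genes were past 2-fold, Oas3 at 0.41 and Eif2ak2 at 0.83 being under that size.

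The 5 other genes whose pair of differences lay closest to the median of the 10, out of 11566 genes measured in both comparisons, were Nt5c3, Gch1, Herc6, Trim30a and Ifi35. Closeness was the Euclidean distance over both log2 differences, 0.11 to 0.13, and rests on 3 arrays only. Nt5c3, a pyrimidine nucleotidase, was 3.06 higher with LPS and at -0.20 with the analogue. Gch1, the first enzyme of tetrahydrobiopterin synthesis, was at 3.09 and -0.25, and the ubiquitin ligase gene Herc6 at 3.09 and -0.27.

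The interferon loop and related pathways were looked at through lists of other pathway genes. Whether interferon raised the Oas and sensor genes in these cultures was not tested. Together the 8 lists held 120 genes, of which 110 had a probe set of their own. With LPS, 36 of 105 measured genes lay past 2-fold on the higher side and 6 on the lower (median 0.50), where 6.64% and 13% of all measured genes were. With LPS+8-Br-cAMP against LPS, 4 of 104 lay past 2-fold on the higher side and 14 on the lower (median -0.11), where 6.49% and 5.81% of all measured genes were. With signals as deposited the last counts were 1 higher and 45 lower, where 0.903% and 27.98% of all measured genes were. The counts of each list below are to be read against the same shares.

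Ifnb1, which encodes interferon beta, read 50.02 without LPS, 337 with LPS and 108 with LPS+8-Br-cAMP. It was 6.73-fold higher with LPS and 3.11-fold lower with the analogue than with LPS alone. In the list of interferon ligand, receptor and signalling genes LPS put 8 of 12 at least 2-fold higher (median 2.07) and 0 lower. They included the feedback inhibitors Usp18 (5.61), Socs3 (4.64) and Socs1 (at least 4.35) and the transcription factor Irf1 (3.06). With the analogue 4 of 12 were at least 2-fold lower than with LPS and 0 at least 2-fold higher (median -0.080): Ifnb1 (-1.64), Irf8 (-1.30), Irf1 (-1.10) and the kinase gene Tyk2 (-1.56, but 1.504 by its second probe set). The receptor gene Ifnar1 was at -0.0050 (-0.53 by its second probe set) and Stat2 at -0.13 (-0.39 by its second).

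Of the Oas1 family and RNase L partners, 5 of 11 listed genes were measured with LPS. Oas1a, an active synthetase, read 241 without LPS, 2593 with LPS and 2988 with LPS+8-Br-cAMP, 3.43 higher with LPS and at 0.20 with the analogue. Oas1b was at least 1.55 higher with LPS and at least 1.55 lower with the analogue, being under the floor on both other arrays. Abce1, an RNase L inhibitor, was at -0.25 and -0.46.

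Among RNA sensors, ligases and cofactors 8 of 21 were at least 2-fold higher with LPS (median 0.43) and 4 at least 2-fold lower with the analogue (median -0.23), with 0 of 21 past 2-fold in the other direction each time. Ddx58, which encodes RIG-I, read 182, 1673 and 1422, at 3.20 with LPS and -0.23 with the analogue. Its 2 other probe sets ran from 2.80 to 3.09 with LPS and were lower with the analogue, from -0.79 to -0.69. Ifit1, Ifit2 and Ifit3, which bind viral RNA, were higher with LPS by at least 7.73, at least 7.69 and by 6.29. With the analogue Ifit3 (-1.88), Ifit2 (-1.30), the helicase gene Ddx60 (-1.24, and -0.75 by its second probe set) and Tlr7 (-1.06, and -1.08 to -0.73 by its 2 others) were lower. The general helicases Dhx9 and Dhx36 were at -0.035 and -0.069 with LPS and at -0.062 and 0.021 with the analogue by their brightest probe sets. Their other probe sets disagreed. That of Dhx9 was at -0.84 with LPS and 1.09 with the analogue, and those of Dhx36 ran from -1.17 to -0.037 with LPS and from -0.82 to -0.29 with the analogue.

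Of PKR regulators and the other eIF2α kinases, with LPS 1 of 9 was at least 2-fold higher and 3 lower (median -0.67). Eif2ak3, the kinase PERK of the endoplasmic reticulum, was at -2.17, Eif2ak1 at -1.19 (-1.23 to -0.33 by its 3 other probe sets) and the RNA-binding partner Tarbp2 at least 1.24 lower. Ppp1r15b, a phosphatase subunit that reverses eIF2α phosphorylation, was at 1.29, but -0.47 by its second probe set. With the analogue 1 of 8 was at least 2-fold lower than with LPS, Eif2ak4 by at least 1.15, and 0 at least 2-fold higher.

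Of the DNA sensing genes, 3 of 14 were at least 2-fold higher with LPS (median -0.14). The 2 of 14 at least 2-fold lower are close to the 13% of all measured genes. The sensors Ifi204 (3.47), Cgas (2.64) and Aim2 (1.87) were higher, while the adaptor Sting1 was at -0.47 and Rad50 at -1.58. With the analogue 2 of 14 were at least 2-fold lower, Hmgb2 (-1.85) and Aim2 (-1.55), and 0 at least 2-fold higher, while 7 of 14 lay above 0 (median 0.080). Cgas was at 0.23 by its brighter probe set and -0.79 by the other, and Ifi204 at -0.32.

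Genes that degrade or edit the cell's own nucleic acid had 4 of 10 at least 2-fold higher with LPS and 0 at least 2-fold lower (median -0.101). These were the nuclease genes Isg20 (3.94) and Rnaset2a (at least 2.23), Pnpt1 (1.60, but -0.017 by its lowest other probe set) and the dNTPase gene Samhd1 (1.34, and 0.059 to 1.36 by its 4 others). With the analogue Isg20 was at least 2-fold lower (-1.34), and Adarb1, a second editing enzyme of the Adar family, was at least 1.15 higher, from under the floor to 72.1 (0.39 by its second probe set). All 3 measured RNase H2 subunit genes were under 2-fold.

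In Mavs signalling 7 of 27 genes were past 2-fold higher with LPS and 1 past 2-fold lower (median 0.52). Irf7 (3.997), the inhibitor Tnfaip3 (3.74) and the mitochondrial ubiquitin ligase gene Marchf5 (2.30) led beside Usp18. The kinase genes Ikbke and Tbk1 were at 1.98 and 0.99. Nlrx1, a mitochondrial protein that restrains Mavs, was at least 1.63 lower with LPS and at least 1.29 higher with the analogue than with LPS. Rnf125, a ligase that marks RIG-I and Mavs for degradation, read 51.5 with LPS and 224 with the analogue (2.12). These were the 2 of 27 genes past 2-fold there, and 0 were at least 2-fold lower, while 12 of 27 lay above 0 (median -0.079). Irf3, the factor that Mavs signalling activates, was at -0.81 and 0.16.

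Around Zbp1, 4 of 8 genes of the death pathway were at least 2-fold higher with LPS and 0 at least 2-fold lower (median 0.85). Cflar was at 2.72 (0.69 to 5.29 by its 4 other probe sets), the necroptosis effector Mlkl at 2.22, Casp1 at 1.39 and Nlrp3 at 1.06, while Ripk3 was at 0.15. With the analogue Casp6 was at least 2-fold higher (1.57) and Cflar at least 2-fold lower (-1.24, and -1.02 to -0.22 by the others).

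**Figure D5:**
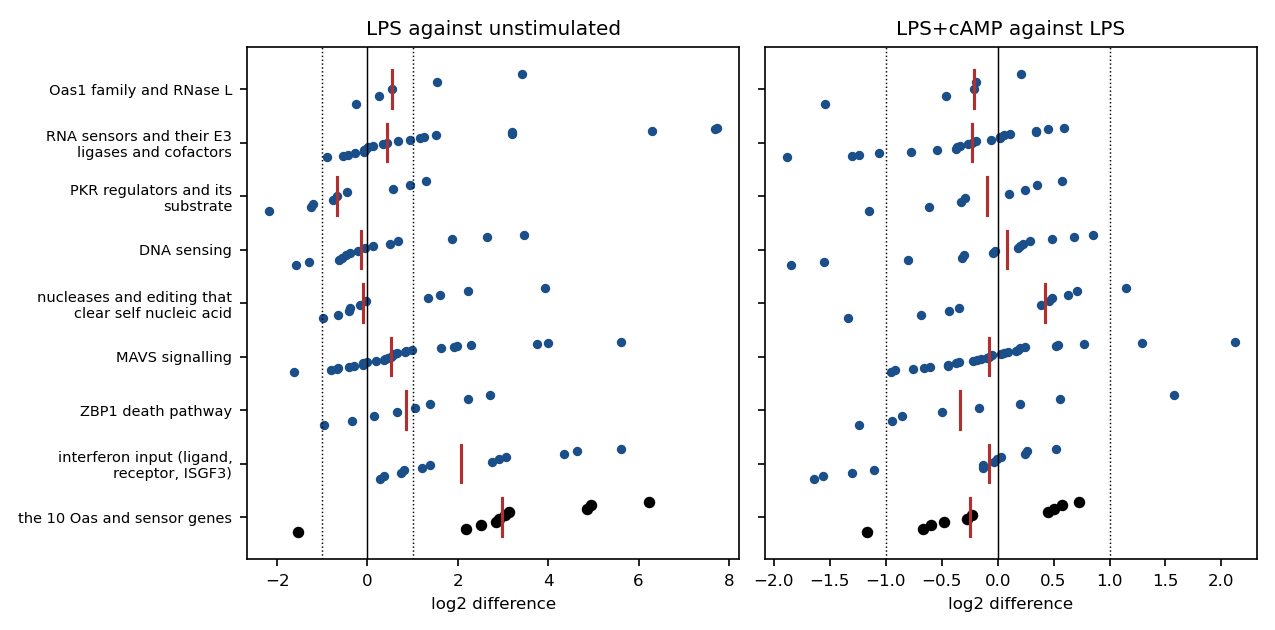
Log2 differences of the measured genes of 8 pathway lists (blue) and of the 10 Oas and sensor genes (black), with list medians as red bars and dotted lines at 2-fold; the left panel is LPS against unstimulated and the right LPS+8-Br-cAMP against LPS. The black points have a median of 2.97 on the left and -0.25 on the right, and the interferon list has 2.07 and -0.080.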

How the data were processed

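Total RNA from 3 cultures was hybridised to 3 Affymetrix mouse arrays. The deposited values were linear signal intensity per probe set; the submitters' processing notes name MAS5, without version or settings. Of 45101 probe sets, 64 controls were left out. GEO's platform annotation paired 34945 with 1 gene and 932 with several, and 9160 were not listed. Arrays were scaled to the average of their 2% trimmed means (factors 0.763, 0.929 and 1.63), floored at 32.5 and log2-transformed. The probe set brightest on average over the 3 arrays stood for its gene, a choice that both LPS arrays enter. A gene was measured when above the floor on at least 1 array compared, and called at 2-fold. With 1 array per condition no test was run, and precision is limited by the number of arrays. The procedure was tested on simulated data. Of each pathway list, up to 4 genes past 2-fold per comparison were named by rule, and others named beside them were chosen after their values were seen. The genes, lists and alternatives were chosen with earlier results of these data known. Python 3.11.15, pandas 2.3.3 and, for cyclic loess, limma 3.58.1 were used.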

Additional observations from a re-analysis of the deposited data

How the results depend on the processing

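Alternatives were 5 other scalings, 2 other floors, a pseudocount, 3 other choices of probe set and thresholds of 1.5-fold and 3-fold. With LPS the count of genes past 2-fold higher was 7 to 9 under all of them, and for LPS+8-Br-cAMP against unstimulated 7 to 9. With signals as deposited 6 genes were at least 2-fold lower with LPS+8-Br-cAMP than with LPS, in place of 1; 27.98% of all measured genes were lower under that setting, which keeps the array's dimness by construction. With probe sets ending in a number and _at only that count was 0, because Oasl2 has no such probe set. At 1.5-fold it was 3, with 1 gene higher, where 15.8% of all measured genes were lower and 18.1% higher. At 3-fold it was 0, where 1.22% were lower. Mavs was the gene lower with LPS. That count was 0 with a floor at the 75th percentile and 0 at 3-fold, where 8.34% and 3.46% of all measured genes were lower. Against unstimulated cells 1 gene was lower with LPS+8-Br-cAMP under spike scaling, 1 with signals as deposited and 1 at 1.5-fold, in place of 0. Of all measured genes 21.6%, 53.6% and 29.5% were lower under these settings. The median of the 10 genes ranged from 2.54 to 3.09 for LPS against unstimulated and from -1.06 to -0.18 for LPS+8-Br-cAMP against LPS. For the 10 genes, no difference past 2-fold by the brightest probe set changed sign under these alternatives; they were not run for single genes of the pathway lists. Low signals limit the size of the Oas2, Oasl1, Dhx58 and Mavs differences. No paired analysis was possible because each condition had 1 array.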
